A study of Mus musculus with 10 samples.

Results

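The 44 genes described here encode the subunits of the mouse 26S proteasome and the proteins that assemble, activate or inhibit it. They were chosen by symbol, as every gene named Psma to Psmg followed by a number, with the interferon-inducible subunits Psmb8, Psmb9 and Psmb10 left out and an expression level of at least 1 FPKM (fragments scaled to transcript length and library size) in at least 2 of 10 libraries. Of 19025 genes in the files, 48 had a matching symbol and 12907 passed the same FPKM minimum. The threshold removed 1 matching gene: Psmb11, the thymus-specific core subunit, reached at most 0.01 FPKM, while the lowest value of any member was 2.98 FPKM, for Psmc3ip in a CD4 T cell library. By their known roles the members were 7 alpha and 7 beta subunits of the core particle, 6 ATPases and 3 other subunits of the base, 8 lid subunits, 7 assembly chaperones, 4 activators and 1 inhibitor. The remaining member, Psmc3ip, matched by symbol only: it encodes a partner of meiotic recombinases and is not a proteasome subunit.

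The proteasome is the protease that degrades proteins tagged with ubiquitin. Its barrel-shaped core is built from rings of alpha subunits, which form the gate, and rings of beta subunits, of which Psmb5, Psmb6 and Psmb7 carry the proteolytic sites. The regulatory particle caps the barrel: its lid holds Psmd14, which removes ubiquitin, and its base holds the ATPases Psmc1 to Psmc6, which unfold the substrate, and the ubiquitin receptor Psmd4. Lymphocytes exchange the 3 catalytic subunits for Psmb8, Psmb9 and Psmb10 to form the immunoproteasome, and cap part of their core particles with the activator PA28, built from Psme1 and Psme2, in the production of peptides for antigen presentation.

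RNA-seq was done on 10 libraries from C57BL/6 mouse cells, with 2 in each of 5 groups. The groups were B6N-22 embryonic stem (ES) cells, grown with LIF on mouse embryonic fibroblasts stopped by mitomycin C; B220 B cells and CD4 T cells, isolated on magnetic beads at over 98% purity from spleens of mice 6 to 8 weeks old; Th2 cells, which are splenic CD4 T cells cultured for 5 days with 15 ng/ml IL-2 and 10 ng/ml IL-4; and Th2 cells to which 10 nM trichostatin A (TSA, an inhibitor of histone deacetylases) was added on day 2 for a further 3 days. No group carried a genetic change, and the ES cells are 1 line. The series title places the study in work on Polycomb and Trithorax complexes in T lymphocytes.

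The defining markers were highest in the groups the labels give: Pou5f1 was at 620 FPKM in both ES libraries and at most 1.74 FPKM elsewhere, and the 5 B cell markers summed to 3930 and 3932 FPKM in B cells. The CD4 T cell libraries also held B cell markers (222 and 226 FPKM summed over 5 genes) and myeloid markers (398 and 404 FPKM over 5 genes), and the ES libraries held fibroblast markers (748 and 756 FPKM over 5 genes). The same myeloid markers summed to 157 and 160 FPKM in the B cell libraries. The ES pair, the B cell pair and the CD4 T pair of libraries differed far less than the Th2 pairs. The SD of the log2 ratio was 0.042 to 0.046 among genes at 10 FPKM or more, against 0.31 and 0.32 for the Th2 pairs. Each of the ES, B cell and CD4 T pairs was therefore averaged and counted as 1 sample, which left 7 samples and 2 residual degrees of freedom. Nothing in the labels ties the replicates to different animals or cultures, and the p-values reflect just the spread among the Th2 libraries, which may be technical. Depth is unknown, since the files hold FPKM and no counts, so the spread that read sampling alone would give could not be computed. The Th2 files give 1 value per gene symbol and the other files 1 per transcript, so that kind of file and culture cannot be told apart in comparisons between them.

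On the deposited FPKM scale, proteasome transcripts were most abundant in ES cells, least abundant in resting B and CD4 T cells, and in between in Th2 cultures. The members together took 1.28% of all FPKM in each ES library, 0.625% and 0.626% in B cells, 0.693% and 0.696% in CD4 T cells, 1.07% and 0.944% in Th2 cultures, and 0.952% and 0.843% in TSA-treated cultures. The median member stood at 118 and 120 FPKM in the ES libraries, 48.4 and 49.6 in B cells, 51.6 and 52.6 in CD4 T cells, 95.6 and 86.0 in Th2 cultures and 82.7 and 67.8 in TSA-treated cultures. The order of ES cells and Th2 cultures depended on the scaling. The members' median log2 fold change, Th2 over ES, was -0.41 on this scale. It was 0.03 after median-ratio scaling and -0.34 after quantile normalization. The summed level of 5 cycling markers (Ccnb1, Top2a, Mki67, Cdc20 and Ccna2) followed the same order of groups in part, at 504 and 506 FPKM in ES cells, 51.9 and 52.2 in B cells, 56.6 and 58.7 in CD4 T cells, 708 and 576 in Th2 cultures and 468 and 342 in TSA-treated cultures; its part in the members' levels was not tested. These are bulk samples, in which fewer cells of a type and less RNA per cell cannot be told apart.

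**Figure D1:**
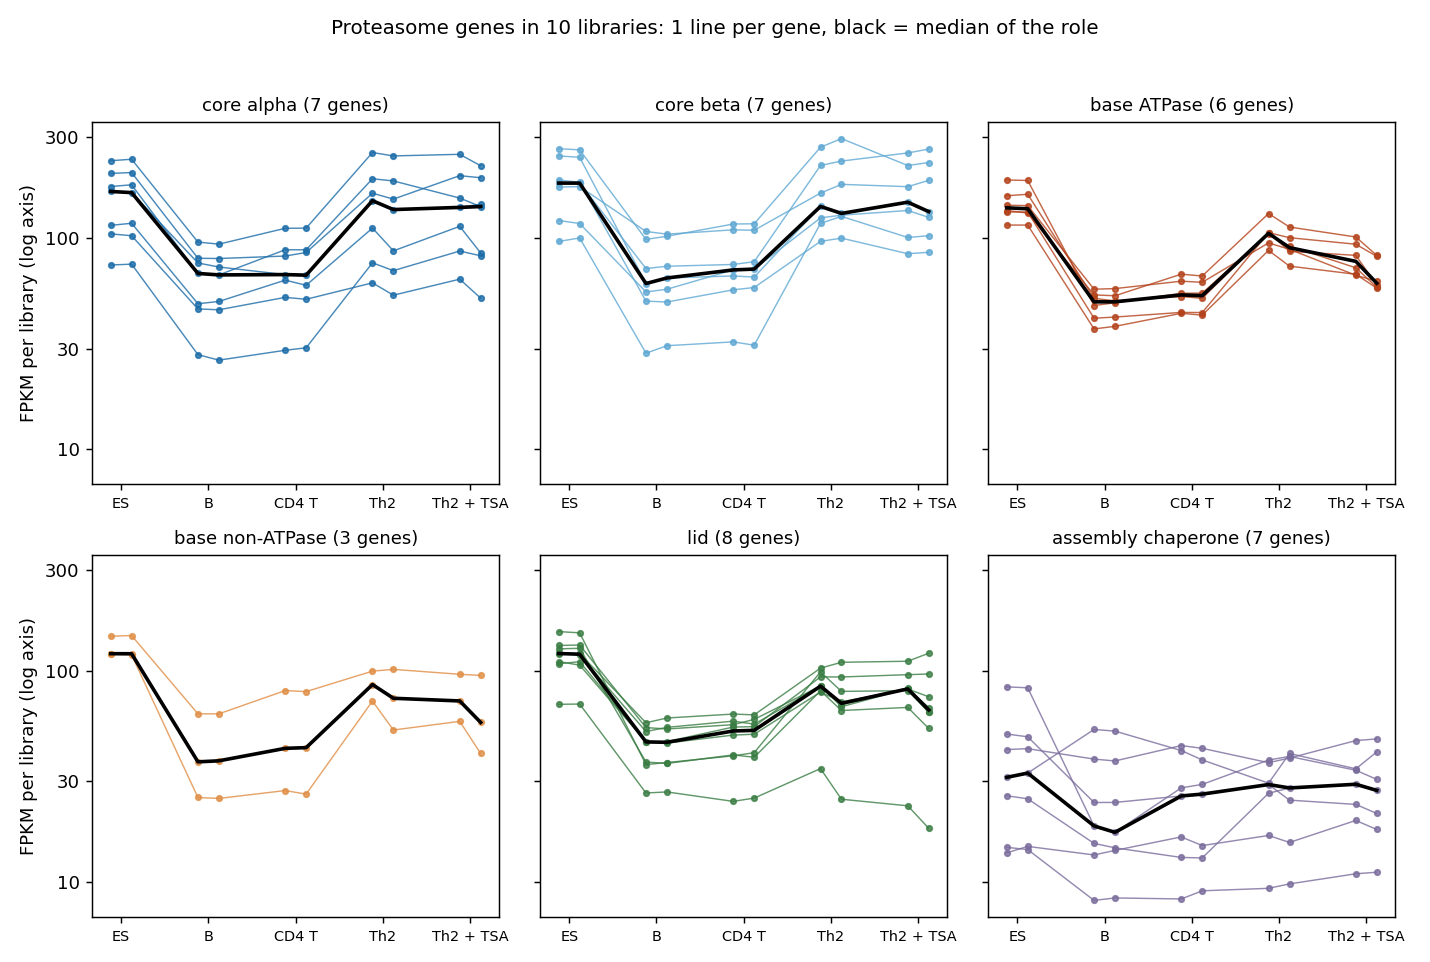
FPKM (log axis) of the members of 6 roles in each of the 10 libraries, 2 adjacent points per group; each thin line joins 1 gene's libraries and the black line is the median of the role. By group mean, core, base and lid genes were lowest in B or CD4 T cells, except the lid gene Psmd11, which was lowest in TSA-treated cultures, while the 7 assembly chaperones showed no common pattern.

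On the per-length FPKM scale, the highest and lowest of the 6 base ATPases differed 1.63-fold in ES cells (Psmc5 at 188 and Psmc2 at 115 FPKM) and 1.47- to 1.53-fold in the other 4 groups. The 3 other base genes spanned 1.22-fold in ES cells and 1.62- to 3.01-fold elsewhere. Lid genes spanned 2.19-fold in ES cells, 3.60-fold in Th2 cultures and 5.66-fold in TSA-treated cultures, with Psmd11 the lowest in every group. Core alpha genes spanned 3.12- to 4.33-fold and core beta genes 2.68- to 3.68-fold. Psma7, an alpha subunit, was the highest of its ring in all 5 groups, from 94.6 FPKM in B cells to 249 in Th2 cultures. Among the lowest members were the chaperone Psmd9, at 8.29 to 14.4 FPKM in group means, and Psmf1, the inhibitor PI31, at 11.1 to 14.0 FPKM. The order of the 44 members was close between B and CD4 T cells (Spearman's rho 0.97 across genes) and between treated and untreated Th2 cultures (0.97), and less close between ES cells and the other groups (0.64 to 0.72); these describe genes within the same libraries and are not tests.

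Promoter sequence was at hand for 37 of the 44 members, from RefSeq on GRCm38.p6, as 250 bases before to 50 bases after each annotated start. The seven-letter ETS-type element CCGGAAG, searched on both strands, was in 15 of the 37 (40.5%), against 9.93% of 27025 genes of any kind and 19.0% of 9719 genes that passed the FPKM minimum. The antioxidant-type element TGACNNNGC was in 6 of 37 members (16.2%) and in 17.1% of the genes that passed the minimum. The interferon-type element, GAAA and GAAA 2 bases apart, was in 5 of 37 (13.5%), against 3.82%, and CCAAT in 13 of 37 (35.1%), against 42.9%. The palindrome TGCGCA was in 6 of 37 (16.2%), against 15.7%. A match describes the letters only; none of these elements overlaps another in the sequences printed here. The upstream parts of 4 promoters are shown because these genes carry the results that follow: Psmb5 had the largest called rise of any subunit in Th2 cultures, Psmd11 the largest called difference below ES cells, and Psmc6 and Psme2 were the 2 members called after TSA. Capitals mark the searched elements.
Psmb5 (chr14:54617996-54618245, minus strand): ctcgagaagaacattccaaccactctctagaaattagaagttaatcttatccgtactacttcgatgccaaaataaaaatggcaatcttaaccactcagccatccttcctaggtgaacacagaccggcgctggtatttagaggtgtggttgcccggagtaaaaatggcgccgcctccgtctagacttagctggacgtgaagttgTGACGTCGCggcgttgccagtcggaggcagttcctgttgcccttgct
Psmd11 (chr11:80428365-80428614, plus strand): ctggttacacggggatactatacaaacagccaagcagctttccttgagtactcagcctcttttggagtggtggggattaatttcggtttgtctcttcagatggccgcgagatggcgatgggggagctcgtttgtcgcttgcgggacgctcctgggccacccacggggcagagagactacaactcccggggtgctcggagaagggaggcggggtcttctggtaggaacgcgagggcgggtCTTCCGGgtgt
Psmc6 (chr14:45329574-45329823, plus strand): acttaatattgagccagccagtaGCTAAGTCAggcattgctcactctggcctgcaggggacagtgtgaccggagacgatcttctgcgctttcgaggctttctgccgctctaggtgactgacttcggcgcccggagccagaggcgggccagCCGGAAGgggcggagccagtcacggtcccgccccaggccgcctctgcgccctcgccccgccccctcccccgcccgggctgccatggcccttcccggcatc
Psme2 (chr14:55591102-55591351, minus strand): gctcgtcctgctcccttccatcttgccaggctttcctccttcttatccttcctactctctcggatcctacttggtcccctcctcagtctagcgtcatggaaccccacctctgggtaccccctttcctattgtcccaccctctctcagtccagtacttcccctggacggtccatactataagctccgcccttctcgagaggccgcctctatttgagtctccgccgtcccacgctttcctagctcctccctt
In Psmb5 the capitals are TGACNNNGC, 47 bases upstream of the start on the sense strand. In Psmd11 they are CCGGAAG on the opposite strand, 11 bases upstream. Psmc6 holds TGACNNNGC on the opposite strand 227 bases upstream and CCGGAAG 100 bases upstream. The Psme2 window holds none of the 5 elements. Psme1 lies on the same chromosome, at chr14:55578494-55581527, a neighbour of Psme2 at chr14:55587440-55591101.

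ES cells had more proteasome mRNA than either resting lymphocyte, in every subunit of the core and the regulatory particle. In all 31 of those genes, both ES libraries were above all 4 B and CD4 T libraries; over all 44 members this held for 39, and for 49.8% of all genes that passed the FPKM minimum. Each side counts as 1 sample with no replicate spread of its own, so these differences were not tested and a size rule was used: a log2 fold change of log2(FPKM + 1) of at least 1, the higher group reaching 5 FPKM or more. Against CD4 T cells, 26 members were higher and 2 lower in ES cells (23.3% and 19.3% of all genes), with a median log2 difference of 1.17 over the members and 0.16 over all genes. Against B cells, 35 were higher and 2 lower (25.0% and 17.5% of all genes), with medians of 1.29 and 0.30.

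Psmd1, a large scaffold subunit of the base, showed one of the widest gaps. It stood at 119 and 119 FPKM in the ES libraries, 25.1 and 24.8 in B cells and 27.1 and 26.03 in CD4 T cells, a log2 difference of 2.12 from CD4 T cells and 2.21 from B cells. Psmd7, a lid subunit that pairs with Psmd14, stood at 153 and 151 FPKM in ES cells, 35.9 and 36.7 in B cells and 39.5 and 40.9 in CD4 T cells. Psmg1, a chaperone that helps build the alpha ring, was at 83.7 and 82.9 FPKM in ES cells, 18.4 and 17.2 in B cells and 27.9 and 28.9 in CD4 T cells. The 3 genes were 2.93- to 4.77-fold higher in ES cells on the linear scale, and the ES and lymphocyte libraries did not overlap. Psmc3ip was at 28.1 and 26.7 FPKM in ES cells and at 2.98 to 3.53 in the 4 lymphocyte libraries. The smallest gap among core and regulatory subunits was that of Psmb1, a non-catalytic beta subunit, at 174 and 175 FPKM in ES cells and 109 and 109 in CD4 T cells.

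The PA28 genes ran the other way. Psme1 was at 46.2 and 46.9 FPKM in ES cells, 166 and 162 in B cells and 241 and 236 in CD4 T cells, while Psme2 was at 26.9 and 26.8 FPKM in ES cells, 108 and 103 in B cells and 157 and 155 in CD4 T cells. They were the 2 members past the size rule in the lower direction, at log2 differences of -2.33 and -2.49 from CD4 T cells and -1.80 and -1.94 from B cells. The other activators were higher in ES cells: Psme3, which encodes the nuclear activator PA28 gamma, was at 111 and 112 FPKM against 51.5 and 51.1 in B cells and 47.6 and 49.1 in CD4 T cells, and Psme4, which encodes PA200, at 49.9 and 49.6 against 22.6 and 22.4 in B cells and 20.0 and 19.8 in CD4 T cells. Within a library, Psme1 was 0.42-fold of Psme3 in ES cells, 3.20-fold in B cells and 4.94-fold in CD4 T cells. Psmf1 differed by a log2 value of 0.13 from CD4 T cells and 0.21 from B cells.

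The immunoproteasome genes, which the selection left out, separated the same cells more widely. Psmb8 was at 1.65 and 1.40 FPKM in ES cells, 178 and 177 in B cells and 239 and 231 in CD4 T cells, so that its ratio to its constitutive counterpart Psmb5 was 0.016 in ES cells, 5.98 in B cells and 7.42 in CD4 T cells. The ratio of Psmb9 to Psmb6 was 0.0087, 3.34 and 3.74, and that of Psmb10 to Psmb7 was 0.045, 1.10 and 1.32. Among ES libraries the constitutive gene was the higher of each pair, and among B and CD4 T cell libraries the immunoproteasome gene was.

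**Figure D2:**
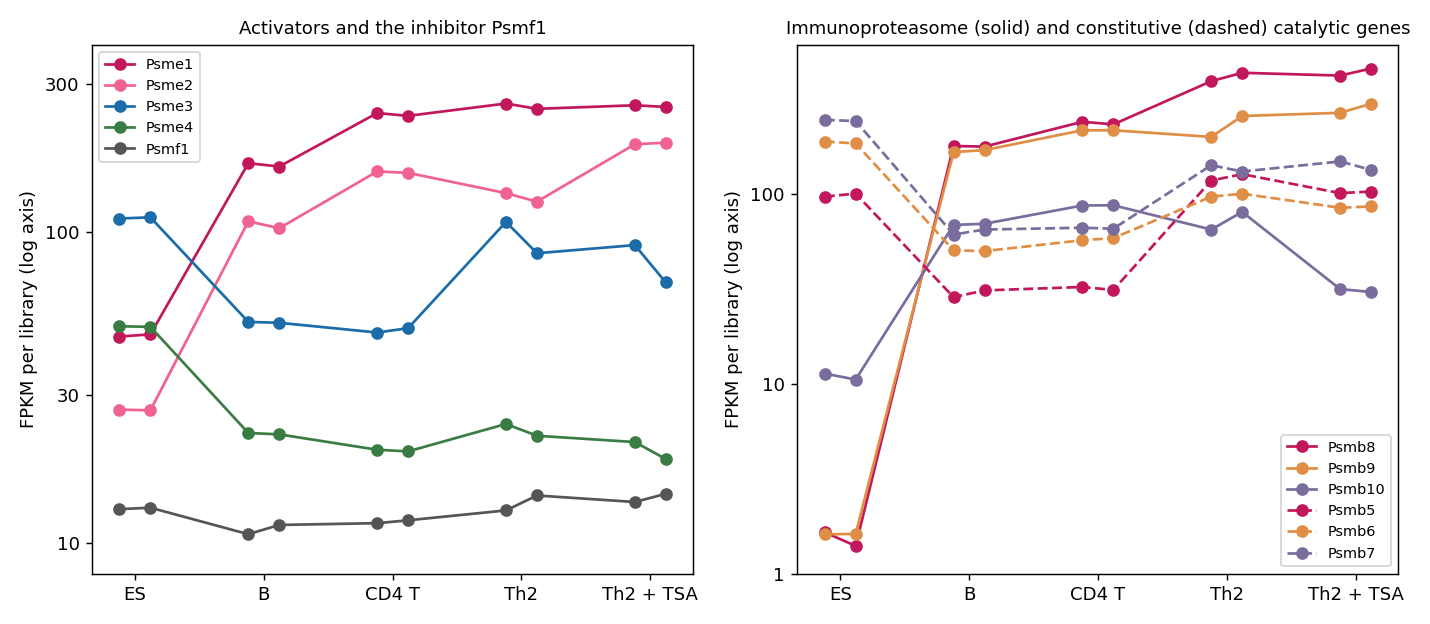
FPKM (log axis) per library, 2 adjacent points per group. Left, the activators Psme1 to Psme4 and the inhibitor Psmf1; right, the immunoproteasome genes Psmb8, Psmb9 and Psmb10 (solid) and the constitutive catalytic genes Psmb5, Psmb6 and Psmb7 (dashed, same colour for the gene each replaces). Psmb8 and Psmb9 are below 2 FPKM in both ES libraries and at 165 FPKM or more in the other 8.

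B and CD4 T cells had nearly the same proteasome profile. No member passed the size rule in either direction, against 6.63% of all genes higher in CD4 T cells and 4.39% higher in B cells. The median log2 difference, CD4 T over B, was 0.11 for the members and 0.05 for all genes, and the members' median was -0.04 after median-ratio scaling, so its sign depended on the scaling. Psmg1 differed most, by 0.65. Psme2 and Psme1 followed at 0.56 and 0.54, both higher in CD4 T cells. Both kinds of library also held myeloid marker RNA, at 398 and 404 FPKM in CD4 T cells and 157 and 160 in B cells. The part of myeloid cells was not tested. Psmg4, another chaperone of the alpha ring, was higher in B cells, at 52.6 and 51.7 FPKM against 41.8 and 37.8 in CD4 T cells.

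Th2 cultures had more core and base mRNA than CD4 T cells. Of the 44 members, 27 were called higher and 0 lower at a limma adjusted p below 0.05, adjusted over 12367 genes, against 16.9% of those genes called higher and 38.1% called lower; at an unadjusted p below 0.05, 30 members were higher and 1, Psme2, lower (19.7% and 42.6% of all genes). The members' median log2 fold change was 0.80, that of all genes -0.28. Median-ratio scaling and quantile normalization took the median of all genes to -0.03 and 0.0014 and the share of higher among all called genes from 30.7% to 45.7% and 49.5%; the members called were then 34 higher and 0 lower, and 31 higher and 1 lower, with medians of 1.17 and 0.65. All 7 core beta genes and all 6 base ATPases rose, as did 5 of 7 core alpha genes, 2 of 3 other base genes, 4 of 8 lid genes, 2 of 7 chaperones and Psmc3ip, while the inhibitor did not pass. The count rests on the spread between few libraries: it was 9 and 8 when Th2 replicate 1 or 2 was left out and 16 when either TSA library was, and 8 members (Psma1, Psma2, Psma5, Psma6, Psmb2, Psmb4, Psmb5 and Psmc3ip) were called in each of those fits.

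Psmb5, the chymotrypsin-like catalytic subunit, rose most among the subunits. It was at 32.3 and 31.1 FPKM in the CD4 T libraries and 117 and 127 in the Th2 libraries, a log2 fold change of 1.91 ± 0.08 (SE) with a limma adjusted p of 0.00217. Both Th2 values also exceeded both ES values, 96.4 and 100.05 FPKM. Psmb2, a non-catalytic beta subunit, went from 75.0 and 77.3 to 220.5 and 231 FPKM, with a log2 fold change of 1.56 ± 0.08 and a limma adjusted p of 0.00294. Psmb4, another non-catalytic beta subunit, went from 116 and 117 to 269 and 295 FPKM, with a log2 fold change of 1.27 ± 0.10 and a limma adjusted p of 0.00521. The groups did not overlap in any of these genes. Psmc3ip rose from 3.53 and 2.98 to 14.9 and 16.1 FPKM, by 1.96 ± 0.16 on the log2 scale (limma adjusted p = 0.00569).

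In the regulatory particle, log2 fold changes ran from 0.55 to 1.09 over the base ATPases and from 0.24 to 1.12 over the lid genes, beside 0.14 to 1.27 over the core alpha and 0.64 to 1.91 over the core beta genes. Psmc2, a base ATPase, was at 44.1 and 43.2 FPKM in CD4 T cells and 87.4 and 73.6 in Th2 cultures, a log2 fold change of 0.86 ± 0.17 (limma adjusted p = 0.0287). The ubiquitin receptor Psmd4 was at 80.4 and 79.5 FPKM in CD4 T cells and 99.4 and 101 in Th2 cultures, a rise of 0.32 ± 0.07 (limma adjusted p = 0.03) that was not called after quantile normalization (0.12, adjusted p = 0.247). The deubiquitinase Psmd14 was at 55.5 and 58.7 FPKM in CD4 T cells and 84.5 and 67.5 in Th2 cultures, with a log2 value of 0.40 ± 0.25 that did not pass (limma adjusted p = 0.257). All Th2 values of these 3 genes were above all CD4 T values, but the gap between the Th2 libraries themselves was wide for Psmc2 and Psmd14.

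None of the 4 activators passed in this comparison. Psme1 was at 241 and 236 FPKM in CD4 T cells and 259 and 249 in Th2 cultures, and its log2 difference of 0.09 ± 0.08 did not pass (limma adjusted p = 0.396); it was -0.34 after quantile normalization and was called at 0.47 after median-ratio scaling. Psme2 was at 157 and 155 FPKM in CD4 T cells and 133 and 125 in Th2 cultures, with a log2 value of -0.27 ± 0.08 (limma adjusted p = 0.0665) that was 0.11 after median-ratio scaling and was called at -0.56 after quantile normalization (limma adjusted p = 0.0198). These are the values of the higher of its 2 rows. The other row was at 138 and 136 FPKM in CD4 T cells, with the same values in Th2 cultures. Summing or averaging the rows gave -0.18 (limma adjusted p = 0.17 and 0.145). Psme3 was at 47.6 and 49.1 FPKM in CD4 T cells and 108 and 85.5 in Th2 cultures, a log2 value of 0.98 ± 0.26 that missed the threshold (limma adjusted p = 0.0536). Psme4 and Psmf1 had values of 0.21 ± 0.12 and 0.19 ± 0.12 and were not called. After median-ratio scaling Psme3, Psme4 and Psmf1 were called higher, at 1.35, 0.57 and 0.54, and after quantile normalization Psme4 and Psmf1 were, at 0.50 and 0.59. Whether the activators differ from the core in this comparison was not tested.

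**Figure D3:**
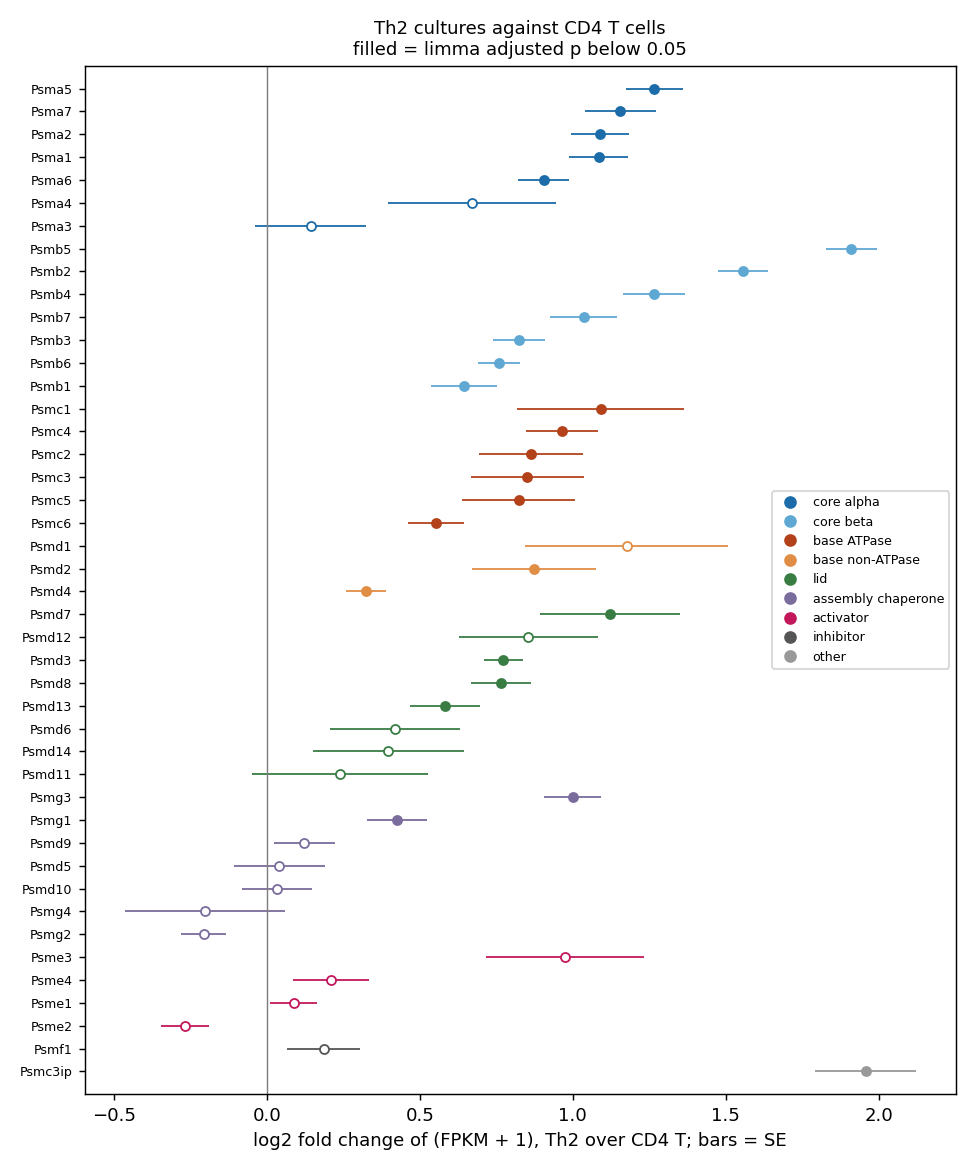
Log2 fold change of (FPKM + 1), Th2 cultures over CD4 T cells, for the 44 members, coloured by role; bars are the standard error from limma and filled points have an adjusted p below 0.05. The 7 core beta genes and 6 base ATPases are all filled and to the right of 0, and Psme2 is the activator left of 0.

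Genes that work with the proteasome were read from a list of 28, of which 27 were measured. Of these, 11 were called higher and 4 lower in Th2 cultures, against 16.9% and 38.1% of all genes tested. Pomp, the chaperone that matures the core, went from 104 and 103 to 237 and 235 FPKM (1.18 ± 0.10 on the log2 scale, limma adjusted p = 0.00607). The ubiquitin receptor Adrm1 went from 25.3 and 25.8 to 54.3 and 54.0 FPKM (1.05 ± 0.11, limma adjusted p = 0.0083). Nfe2l1, the transcription factor known to induce proteasome genes, was at 23.5 and 23.2 FPKM in CD4 T cells and 26.1 and 22.4 in Th2 cultures and did not pass (limma adjusted p = 0.796). Its processing factors Ddi2 (-1.22 ± 0.31, limma adjusted p = 0.0486) and Ngly1 (-0.90 ± 0.20, 0.038) were called lower, the former near the threshold. Nfe2l2 (-1.68 ± 0.10, limma adjusted p = 0.00344) and Ubqln2 (-0.46 ± 0.09, 0.0317) were called lower too. Psmb8 rose from 239 and 231 to 391 and 433 FPKM (0.80 ± 0.12, limma adjusted p = 0.0152), and the ratio of Psmb8 to Psmb5 was 3.37 here, against 7.42 in CD4 T cells. Psmb8 was not called after quantile normalization (0.27, limma adjusted p = 0.0564). Without Th2 replicate 1 or 2, the calls of Psmb8 (0.88 and 0.73) and Adrm1 (1.05 and 1.06) were lost. That of Pomp (1.19) was lost without replicate 2. Ubb is among the 11, but it belongs to a multigene family whose copies may be counted differently in the 2 kinds of file, and its value is uncertain. The myeloid and B cell markers of the CD4 T libraries were at 2.85 to 3.68 and 4.33 to 6.29 FPKM in Th2 cultures, with C1qa and Pax5 at 0 in both; their part in these differences was not tested.

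Against ES cells, Th2 cultures had more PA28 mRNA, while core genes lay on both sides. In this comparison 3 members were called higher and 15 lower (limma adjusted p below 0.05), against 19.0% and 43.1% of all genes, and the median log2 fold change was -0.41 both for the members and for all genes. The counts moved with the scaling: after median-ratio scaling, which took the median of all genes from -0.41 to -0.06, 11 members were higher and 3 lower, while after quantile normalization, which took it to -0.02, 4 were higher and 16 lower. The share of higher among all called genes went from 30.6% to 46.3% and 49.2%, and the members' median from -0.41 to 0.03 and -0.34. Leaving out Th2 replicate 1 or 2 left 4 and 2 members called lower; Psmb6, Psme1, Psme2 and Psmg1 were called in every fit that left out 1 Th2 library. Core beta genes had a median of 0.09, core alpha genes -0.20, base ATPases -0.57 and lid genes -0.71, against -0.41 for all genes. All 6 ATPases and all 8 lid genes had negative values, of which 3 and 2 were called, beside 43.1% of all genes called lower. After median-ratio scaling Psmc3, Psmd3 and Psmd8 had positive values (0.31, 0.22 and 0.26). The catalytic genes Psmb6, at 188 and 184 FPKM in ES cells and 96.4 and 99.9 in Th2 cultures, and Psmb7, at 245 and 241 in ES cells and 141 and 131 in Th2 cultures, were among the members called lower (limma adjusted p = 0.00319 and 0.0107), while Psmb5 had a positive value, 0.31 ± 0.08, that just missed the threshold (limma adjusted p = 0.051). These comparisons use the same Th2 libraries as the one with CD4 T cells.

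The lid subunit Psmd11 was lowest relative to ES cells. It was at 69.2 and 69.4 FPKM in the ES libraries and 34.4 and 24.6 in Th2 cultures, a log2 fold change of -1.22 ± 0.29 (limma adjusted p = 0.0377) that was not called after median-ratio scaling (-0.79, adjusted p = 0.0995). Psmg1 was at 37.7 and 39.2 FPKM in Th2 cultures, -1.09 ± 0.10 from ES cells (limma adjusted p = 0.0046). Psme4 was at 24.2 and 22.2 FPKM, -1.07 ± 0.12 from ES cells (limma adjusted p = 0.00801). Psmc5, the ATPase with the highest level in ES cells, was at 188 and 187 FPKM there and 105 and 91.6 in Th2 cultures (-0.93 ± 0.18, limma adjusted p = 0.0256), and was not called after median-ratio scaling (-0.49, adjusted p = 0.107). Both Th2 libraries lay below both ES libraries in each of these 4 genes. The 3 members called higher were Psme1, at 2.42 ± 0.08 (limma adjusted p = 0.000526), Psme2, at 2.23 ± 0.08 (limma adjusted p = 0.000665), and Psmb2, at 0.31 ± 0.08 (limma adjusted p = 0.049). Psmb2 was not called after quantile normalization (0.24, adjusted p = 0.0595). The ES libraries' fibroblast markers were at 4.09 and 6.35 FPKM summed in the Th2 cultures, and their part was not tested.

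Between TSA-treated and untreated Th2 cultures 2 members were called, Psme2 of PA28 higher and the base ATPase Psmc6 lower. Neither call held in every alternative fit. Of the 44, 1 was thus called higher and 1 lower (limma, adjusted over 12907 genes), against 9.26% and 4.14% of all genes; 3 were higher and 7 lower at an unadjusted p below 0.05 (22.5% and 14.4% of all genes). The median log2 change was -0.07 for the members and 0.02 for all genes. The share of higher among all called genes was 69.1%, and 60.1% and 55.1% after median-ratio scaling and quantile normalization. Psme2 went from 133 and 125 FPKM in untreated cultures to 192 and 194 in treated ones, a log2 fold change of 0.57 ± 0.06 (limma adjusted p = 0.036). Psmc6, a base ATPase, went from 94.8 and 88.4 to 66.7 and 62.5 FPKM, -0.50 ± 0.07 (limma adjusted p = 0.0467). Both calls were lost in every fit that left out 1 of the 4 Th2 libraries and when genes of low value were kept, where the limma adjusted p was 0.0581 and 0.0754; that of Psmc6 was also lost after quantile normalization (adjusted p = 0.0746). In the fits that left out 1 library, Psme2 ranged from 0.53 to 0.62 and Psmc6 from -0.55 to -0.45, and 0 of all genes were called when either untreated library was left out. Psme1, the partner of Psme2 in PA28, was at 259 and 249 FPKM untreated and 255 and 252 treated, so that the ratio of Psme1 to Psme2 was 1.94 and 1.99 in untreated and 1.334 and 1.302 in treated cultures.

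All 6 base ATPases were lower in the treated library of both experiment numbers, with treated and untreated libraries not overlapping. Over all genes 27.1% were lower without overlap and 35.8% lower under both numbers. Psmc5 was at 105 and 91.6 FPKM untreated and 72.3 and 58.5 treated, a log2 value of -0.58 ± 0.15 (limma adjusted p = 0.0971), and Psmc2 at 87.4 and 73.6 FPKM untreated and 67.4 and 57.9 treated, -0.36 ± 0.14 (limma adjusted p = 0.181). The median log2 change of the ATPases was -0.37 under number 1 and -0.47 under number 2, that of the core alpha genes 0.03 and -0.03, and that of the core beta genes 0.07 and -0.03. The fall was not particular to the ATPases. All 3 other base genes were also lower under both numbers, 2 of them without overlap, with medians of -0.25 and -0.36. Lid genes had medians of -0.04 and -0.07. Of the 27 partner genes, 15 were lower and 7 higher without overlap. Over all members, 24 were lower and 14 higher under both numbers, and 17 were lower and 9 higher without overlap, against 36.7% of all genes higher without overlap.

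Within each library the base ATPases stood lower relative to the core after TSA. The ratio of their geometric mean to that of the core alpha genes was 1.005 and 0.995 in ES cells, 0.81 and 0.83 in B cells, 0.82 and 0.81 in CD4 T cells, 0.80 and 0.78 in untreated Th2 cultures, and 0.61 and 0.56 in treated ones. The ratio to core beta genes was 0.68 and 0.57 untreated and 0.53 and 0.45 treated. Both treated values of each ratio were below all others, but with 2 libraries a group an exact permutation test cannot go below p = 0.333. A ratio within a library shows unequal change and not which subcomplex changed. The lid genes stood at 0.61 and 0.57 of the core alpha mean untreated, 0.55 and 0.53 treated, and 0.70 and 0.71 in CD4 T cells.

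**Figure D4:**
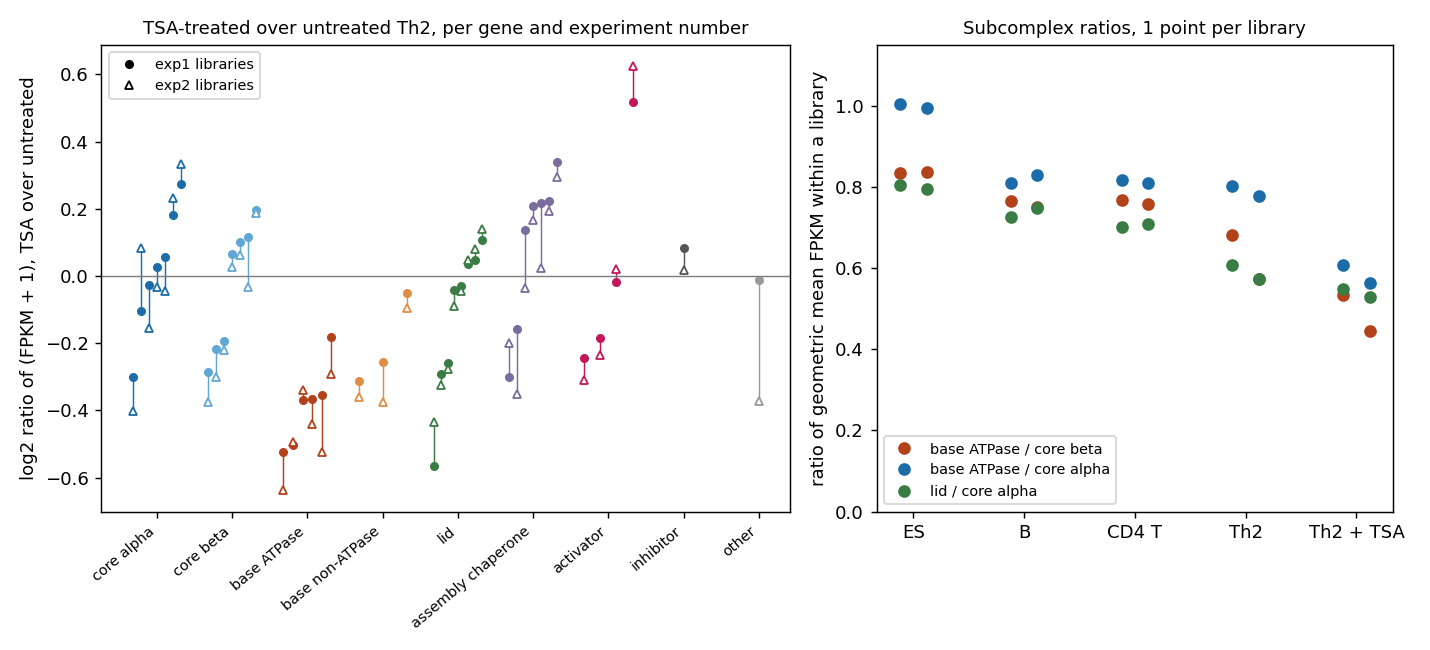
Left, log2 ratio of (FPKM + 1), TSA-treated over untreated Th2 library, for each of the 44 members under experiment number 1 (circles) and 2 (triangles), by role; right, ratios of geometric mean FPKM between subcomplexes, 1 point per library. The 6 base ATPases lie between -0.64 and -0.18 in the left panel, and the treated libraries have the lowest ratios of base ATPases to core genes in the right panel.

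Of the constitutive catalytic genes, Psmb5 was at 117 and 127 FPKM untreated and 101 and 103 treated (-0.26 ± 0.07 on the log2 scale, limma adjusted p = 0.0987). The groups did not overlap, but the difference did not pass. Among the genes outside the selection, Psmb10 fell from 64.7 and 80.1 to 31.4 and 30.4 FPKM, -1.19 ± 0.13 (limma adjusted p = 0.0359; 0.066 with low genes kept). That call was also lost in each of the 4 fits leaving out 1 Th2 library, where the log2 value ranged from -1.35 to -1.04. Psmb8 and Psmb9 had log2 values of 0.09 ± 0.09 and 0.32 ± 0.17 and were not called. The ratio of Psmb10 to Psmb7 was 0.46 and 0.61 untreated and 0.21 and 0.23 treated. Of the 27 partner genes, 0 were called higher and 2 lower, Psmb10 and Ubqln2, against 9.26% and 4.14% of all genes. At an unadjusted p below 0.05, limma gave 1 higher and 7 lower, against 22.5% and 14.4% of all genes. Pomp, Nfe2l1 and Adrm1 did not pass, at -0.12 ± 0.08, -0.37 ± 0.11 and -0.25 ± 0.09.

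Several other measures moved with the treatment. Cycling markers summed to 468 and 342 FPKM in treated against 708 and 576 in untreated cultures, Th2 markers to 129 and 143 against 201 and 249, B cell markers to 13.9 and 38.2 against 4.33 and 6.29, and ribosomal protein genes took 21.8% and 22.3% of all FPKM against 16.8% and 18.5%. Their part in the members' changes was not tested. The library number moved with the members too: 26 of the 44 were higher under number 1 in both the treated and the untreated pair, against 32.3% of all genes, among them all 6 base ATPases and 6 of 7 core alpha genes but 1 of 7 core beta genes.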

How the data were processed

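RNA-seq libraries were made from total RNA (TRIzol, TruSeq), per the labels' protocols. The authors deposited FPKM values, 1 table per library; the submitters' processing notes name Bowtie 0.12.8, TopHat 1.3.2, Cufflinks 2.0.2 and mm10. Each gene took its highest row (21035 rows, 19025 genes); 315 rows without a symbol and 30 with date-like symbols were named from the RefSeq table. Psme2 and Psmg4 had 2 rows each. Genes at 0 throughout the Th2 files or throughout the others were not tested between them. The limma package 3.58.1 (R 4.3.3, trend) was fitted on log2(FPKM + 1), which understates changes of low genes, for all 5 groups together, with ES, B and CD4 T pairs averaged; tests were two-sided with Benjamini-Hochberg adjustment over all genes at FPKM of 1 or more in 2 libraries. The single ES and CD4 T samples are assumed to vary like the Th2 groups. Members with the 4 largest called changes per direction (3 under the size rule) and a fixed set of catalytic, receptor, activator and partner genes were named with statistics; Psmb1, Psmb6, Psmb7, Psmg4, Psma7, Psmc5 and Psmd9 were also described after their values were seen. A few partner genes of the list are not reported here and were left out of its counts. The fit was tested on simulated data with independent noise in each sample. Same-numbered Th2 libraries deviated together, so that test cannot vouch for the p-values here. The members, lists and rules were chosen with earlier results of these data known. Alternatives were other pseudocounts, row summaries, scalings and filters, 10 separate samples, an experiment block and leaving out each library.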

Additional observations from a re-analysis of the deposited data

How the results depend on the processing

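Of the alternatives run on the member counts, several moved a count by over 1.5 times. In Th2 cultures against CD4 T cells, members called higher ranged from 8 to 27 over fits leaving out 1 library (27 with all), and the 0 called lower became 1 after quantile normalization and 2 with 10 separate samples. For TSA, members called higher (1) became 0 without the filter on low values and 6 with 10 separate samples, and ranged from 0 to 1 over fits leaving out 1 library; members called lower (1) became 0 after quantile normalization, 0 without the filter and 15 with 10 separate samples, and ranged from 0 to 1 over the same fits. The labels give experiment numbers without saying what they mark. Same-numbered Th2 libraries deviated together (r = 0.58 over 12907 genes, 0.86 over the 44 members), a hint from 2 pairs only, and a replicate block gave 1 higher (Psme2) and 6 lower (Psmc2, Psmc3, Psmc5, Psmc6, Psmd1 and Psmd7). In Th2 cultures against ES cells, median-ratio scaling gave 11 higher and 3 lower, 10 separate samples gave 27 lower, and members called lower ranged from 2 to 16 over fits leaving out 1 library. With a size rule of log2 2, 2 members were higher in ES than CD4 T cells, and 4 higher and 0 lower than in B cells. Summing rows put the members' share at 1.16% in ES, 0.58% in B and 0.66% in CD4 T cells. The cause of these shifts was not tested.

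Over the 44 members and 3 tested comparisons, 35 values turned sign under at least 1 alternative. Of these, 1 had been called, Psma6 against ES cells (-0.36, and 0.081 after median-ratio scaling), and 1 was called after turning, Psma5 against ES cells (-0.033, and 0.41 after the same scaling). Among the genes named with statistics, against CD4 T cells, quantile normalization gave Psme1 -0.34 and Psmb9 -0.37, median-ratio scaling gave Psme2 0.11 and Psmb10 0.11, and over fits leaving out 1 library Psmb9 ranged from -0.12 to 0.25 and Nfe2l1 from -0.056 to 0.15. After TSA, quantile normalization gave Psmd4 0.023, Psmd14 0.033, Psme1 -0.061 and Psmb8 -0.017, and median-ratio scaling gave Psme1 -0.082 and Psmf1 -0.027. Over fits leaving out 1 library, Psmd14 ranged from -0.25 to 0.12, Psme1 from -0.028 to 0.029 and Psmf1 from -0.024 to 0.12. Against ES cells, Psme3 was 0.23 after median-ratio scaling and Psmf1 ranged from -0.020 to 0.13. For CD4 T against B cells, median-ratio scaling gave Psmb5 -0.062, Psmd14 -0.056, Psmf1 -0.067 and Adrm1 -0.13, and quantile normalization gave Psmf1 -0.025 and Adrm1 -0.046. FPKM carries no counts, so the depth behind low members such as Psmc3ip and Psmd9 is unknown.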
